A study of Mus musculus with 3 samples.

Results

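The 8 genes described here encode feedback inhibitors of receptor tyrosine kinase signalling: the Sprouty genes Spry1, Spry2 and Spry4, the Sprouty-related genes Spred1 and Spred2, and the MAP kinase phosphatase genes Dusp6, Dusp5 and Dusp4. They were chosen by name, with earlier results of these data known. Each was looked up by symbol in the authors' 2 gene lists of DamID marking, one list for GFI1 and one for GFI1B. The lists together name 7612 genes by identifier. All 8 inhibitors were found, 7 of them marked by GFI1:DAM, 5 by GFI1B:DAM and 4 by both. Over protein-coding genes at large the matching shares were 18.4%, 19.1% and 11.0%, in the same order.

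Growth factors such as FGF and VEGF bind receptor tyrosine kinases, which pass the signal through RAS, RAF and MEK to the kinase ERK. ERK in turn switches on genes whose products damp the same route. Sprouty proteins act between the receptor and RAF, SPRED proteins hold back RAS at the membrane, and the DUSP phosphatases remove the activating phosphates from ERK and related kinases. In endothelium this route carries VEGF and FGF signals, so the inhibitors set how long and how strongly those signals last.

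GFI1 and GFI1B are zinc-finger repressors that recruit the histone demethylase LSD1, and the comparison asks which of these inhibitor genes each of them marks. The study used 3 kinds of mouse haemogenic endothelium, an endothelium that gives rise to blood, made from AinV18 embryonic stem cells. One carried GFI1 fused to the bacterial DNA adenine methyltransferase DAM (GFI1:DAM), one carried GFI1B fused to it (GFI1B:DAM), and the control carried DAM alone. In all 3 the construct sat at the Hprt docking site under doxycycline control. It was therefore not driven by the promoter of Gfi1 or Gfi1b, and each construct is represented by 1 engineered line. FLK1+ cells came from embryoid bodies of day 3.25, and haemogenic cells were sorted by TIE-2 and c-KIT after 2 days of culture. Each sample stands for 2 biological replicates that cannot be told apart, so no value has an SD and no test between the fusions was possible. The GFI1B list was made after control reads were taken off, while the header of the GFI1 list does not say whether this was done; what part this has in any difference between the lists was not tested. Library depth is unknown, and DAM-alone values were not used here. The lists give DAM marking and no RNA level, so the sorted population could not be checked against its markers and nothing here is an expression level. A gene missing from a list is not listed, which does not show that it was unmarked.

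DAM methylates the adenine of GATC, and DpnI cuts only methylated GATC, so marking can be read only where that sequence occurs. GFI1 and GFI1B bind DNA sites with the core AATC. The promoters of the 4 inhibitors listed for both fusions are shown to let a reader see how often each of these letters falls at the start of such genes. Each is 300 bases from RefSeq on GRCm38.p6, 250 before and 50 after the annotated start, read along the gene's strand. Capitals mark GATC, and AATC on either strand (written AATC or GATT). Because the intervals below are on mm9, an older build, they cannot be placed on these promoters.
Spry1 (chr3:37639697-37639996, plus strand): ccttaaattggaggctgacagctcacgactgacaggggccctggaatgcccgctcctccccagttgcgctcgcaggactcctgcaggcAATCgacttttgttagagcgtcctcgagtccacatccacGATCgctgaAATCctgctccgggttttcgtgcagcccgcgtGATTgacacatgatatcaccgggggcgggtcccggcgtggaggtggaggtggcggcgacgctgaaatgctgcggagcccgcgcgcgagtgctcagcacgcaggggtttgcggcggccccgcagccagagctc
Spred1 (chr2:117120821-117121120, plus strand): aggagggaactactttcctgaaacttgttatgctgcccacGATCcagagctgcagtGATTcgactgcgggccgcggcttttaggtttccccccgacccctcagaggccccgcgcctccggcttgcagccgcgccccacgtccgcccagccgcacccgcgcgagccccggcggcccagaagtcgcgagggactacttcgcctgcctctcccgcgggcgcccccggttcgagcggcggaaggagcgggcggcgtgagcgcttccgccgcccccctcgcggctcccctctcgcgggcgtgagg
Spred2 (chr11:19924192-19924491, plus strand): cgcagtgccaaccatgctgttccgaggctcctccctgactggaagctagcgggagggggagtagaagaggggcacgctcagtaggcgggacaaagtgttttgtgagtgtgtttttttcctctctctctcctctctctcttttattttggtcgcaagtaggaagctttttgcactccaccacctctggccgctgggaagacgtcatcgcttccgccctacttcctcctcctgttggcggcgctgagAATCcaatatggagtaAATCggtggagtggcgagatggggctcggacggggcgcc
Dusp6 (chr10:99262981-99263280, plus strand): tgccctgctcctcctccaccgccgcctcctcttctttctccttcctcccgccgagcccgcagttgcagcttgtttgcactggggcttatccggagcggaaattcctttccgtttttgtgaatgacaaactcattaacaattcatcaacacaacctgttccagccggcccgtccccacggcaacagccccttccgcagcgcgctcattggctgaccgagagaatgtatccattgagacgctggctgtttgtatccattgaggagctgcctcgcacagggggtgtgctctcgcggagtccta

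Spry1 and Spred1 each hold 1 GATC in this window, and Spred2 and Dusp6 hold 0. AATC occurs 3 times at Spry1, 1 time at Spred1, 2 times at Spred2 and 0 times at Dusp6. Promoter sequences were matched for 6 of the 8 inhibitors, Spry2 and Dusp5 besides these. GATC was present in 3 of the 6 and in 48.0% of 32851 promoters of the same length in the table. AATC was present in 5 of the 6 and in 73.1% of all. The inhibitor promoters thus hold these letters about as often as promoters at large, and a match is a run of letters and not a shown binding site. The windows differ in base composition, from 57.0% G and C at Spred2 and 57.3% at Dusp6 to 72.3% at Spred1.

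For either fusion the inhibitors were listed at a higher share than genes at large. Of the 8 genes, 7 (87.5%) were listed for GFI1, where 9.24% of 49997 RefSeq genes and 18.4% of the 21900 protein-coding genes were listed. For GFI1B 5 (62.5%) were listed, where 9.45% of all genes and 19.1% of protein-coding genes were listed. Both fusions listed 4 of the 8 inhibitors, against 5.32% of all genes and 11.0% of protein-coding genes. The 8 genes were proposed with earlier results of these lists known, so this excess is a description and no test was made of it. The 3 families differed in their pattern. Both SPRED genes were listed for both fusions. Of the 3 Sprouty genes, Spry1 was listed for both, Spry4 for GFI1 alone and Spry2 for GFI1B alone. All 3 phosphatase genes were listed for GFI1, and Dusp6 was the phosphatase gene among them that GFI1B listed as well.

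Long genes are listed more often, so each inhibitor was also set beside protein-coding genes of 0.8 to 1.25 times its own length in RefSeq. Spry1, Spry2 and Dusp6 are short genes of 4.65, 4.87 and 4.26 kb. Of genes like Spry1 in length the GFI1 list held 6.93%, the GFI1B list 8.74% and both lists 3.18%, and for the length of Dusp6 the share for both was 3.42%. Spry2 was listed for GFI1B alone, as part of a length class of which the GFI1B list held 8.98%. Spry1 and Dusp6 were thus listed for both fusions in a length class where few genes are. Intervals assigned to a gene can lie outside it, which gene length does not cover. The 2 GFI1B intervals of Spry1 lie 17.0 kb apart and the 2 GFI1 intervals of Dusp6 10.3 kb apart, farther than either gene is long. What part flanking sequence has in the listing of short genes was not tested. Spry4, Dusp5 and Dusp4 measure 15.1, 12.7 and 12.3 kb, and 12.3%, 11.6% and 11.9% of genes of those lengths were listed for GFI1. Spred1 (61.2 kb) and Spred2 (99.6 kb) are long, and 18.7% and 28.8% of genes of their lengths were listed for both fusions.

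The level given for each gene is the authors' reads per kb of interval, the reads over all intervals of a gene divided by their summed length. It is not scaled to library size, so genes are compared inside a list by their percentile, the share of the list's genes that lie lower (ties averaged). The median gene had 48.7 reads per kb with GFI1:DAM and 53.6 with GFI1B:DAM. None of the inhibitors stood near the top of either list. In the GFI1 list they ran from 34.1 to 69.1 reads per kb, with 5 above the list median and 2 below, and a median percentile of 63.0. In the GFI1B list they ran from 33.7 to 74.7, with 2 above and 3 below, and a median percentile of 35.8. The inhibitors nearest the list median were Spry1 (50.2) above and Spred1 (36.0) below for GFI1, and Spred2 (74.0) above and Dusp6 (46.3) below for GFI1B. By read number in place of reads per kb, the median percentile in the GFI1B list was 68.7, on the other side of the middle of the list.

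**Figure D1:**
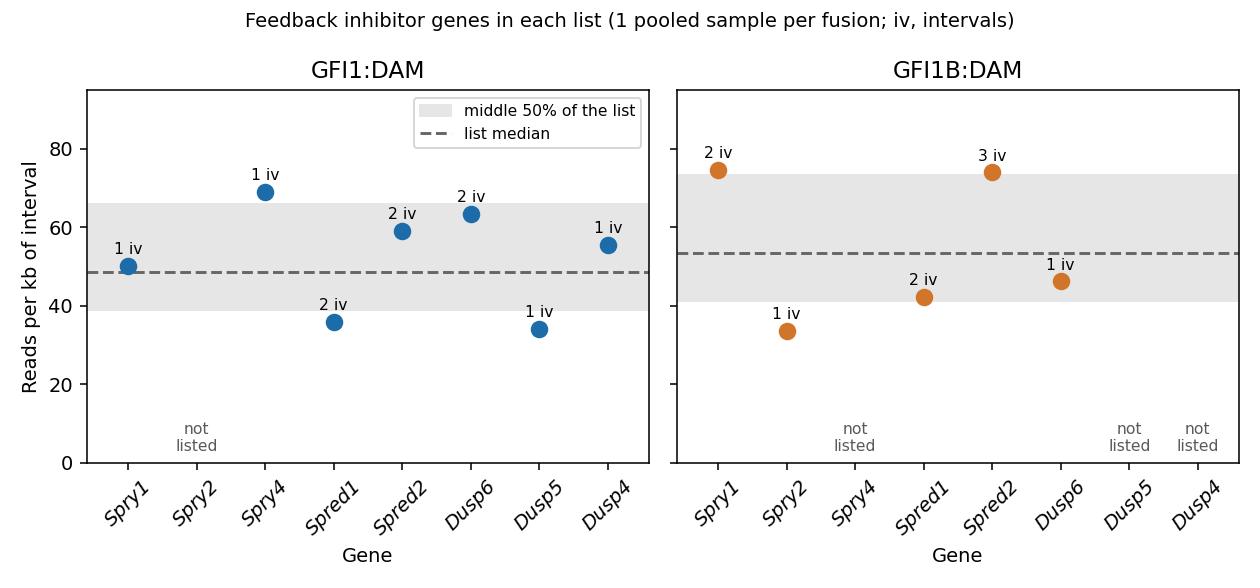
Reads per kb of interval (vertical axis) of the 8 feedback inhibitor genes for GFI1:DAM (left) and GFI1B:DAM (right); each point is 1 pooled value, labelled with its number of intervals (iv), the dashed line is the list median and the band the middle 50% of the list. For GFI1 5 of 7 genes lie above the median, and for GFI1B 2 of 5. The panels have the same axis, but reads per kb are not scaled to library size, so heights are not compared between lists.

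Among the Sprouty genes, Spry1, known for restraining GDNF signalling in the developing kidney, was listed for both fusions. It had 93 reads at 50.2 reads per kb for GFI1, against 142 reads at 74.7 reads per kb for GFI1B. Within its list it stood at percentile 52.9 for GFI1 and 76.1 for GFI1B. The GFI1 entry rests on 1 interval, chr3:37570843-37572693 (mm9, 1851 bp). GFI1B had 2 intervals, chr3:37570926-37572026 (1101 bp), which lies wholly inside the GFI1 interval, and chr3:37553076-37553876 (801 bp), 17.0 kb away from the other. The reads were deposited per gene, so it is not known how the GFI1B reads divide between these places.

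Spry4, which restrains RAS activation downstream of VEGF and FGF receptors, was listed for GFI1 and not for GFI1B. It had 45 reads in 1 interval of 651 bp, chr18:38737274-38737924 (mm9), which gave 69.1 reads per kb. That is the highest reads per kb of the inhibitors in the GFI1 list (percentile 77.7), from the shortest of their GFI1 intervals. By read number alone it stood at percentile 21.7. The nearest GFI1B interval lay 47.8 kb away and was listed under other genes.

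Spry2, which binds the adaptor GRB2 and the ubiquitin ligase CBL, was the inhibitor listed for GFI1B and not for GFI1. It had 32 reads in 1 interval of 951 bp, chr14:106271313-106272263 (mm9), at 33.7 reads per kb and percentile 11.1 of the list. Its 32 reads put it at percentile 3.95 by read number, among the weakest entries of the GFI1B list, whose lowest read number is 16. The nearest GFI1 interval lay 45.2 kb away under another gene. The Sprouty genes therefore shared 1 marked place between the fusions, the one at Spry1.

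Both SPRED genes carried at least 2 intervals for each fusion. Spred2, which encodes a membrane protein that restrains ERK activation, had 145 reads at 59.1 reads per kb for GFI1, against 374 reads at 74.0 reads per kb for GFI1B. It stood at percentile 68.4 for GFI1 and 75.6 for GFI1B, and by read number at 79.9 and 93.2. Its first interval was nearly the same in both lists, chr11:19819613-19821263 for GFI1 and chr11:19819623-19821323 for GFI1B (mm9), with starts 10 bp and ends 60 bp apart. The overlap was 1641 bp, or 99.4% of the GFI1 interval and 96.5% of the GFI1B interval.

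The second place at Spred2 was wider for GFI1B. GFI1 had chr11:19833713-19834513 (801 bp) and GFI1B had chr11:19833823-19836273 (2451 bp), which starts 110 bp and ends 1760 bp further on. The overlap of 691 bp was 86.3% of the GFI1 interval and 28.2% of the GFI1B interval. GFI1B had a further interval, chr11:19886873-19887773 (901 bp), 50.6 kb beyond its interval there, with no GFI1 interval within 52.4 kb.

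Spred1, whose product brings the RAS inhibitor neurofibromin to the membrane, had the widest marked length of the inhibitors in the GFI1 list and a low density in both lists. It had 153 reads over 4252 bp at 36.0 reads per kb for GFI1, against 186 reads over 4402 bp at 42.3 reads per kb for GFI1B. By reads per kb it stood at percentile 18.1 for GFI1 and 26.8 for GFI1B, but by read number at 81.5 and 78.0. At one end GFI1 had chr2:117004468-117006318 (1851 bp), lying wholly inside GFI1B's chr2:117003472-117006372 (2901 bp). At the other end the intervals were neighbours and did not overlap: GFI1 had chr2:116965518-116967918 (2401 bp) and GFI1B had chr2:116963522-116965022 (1501 bp), with 495 bp between them. The places lay 36.5 kb apart for GFI1 and 38.4 kb apart for GFI1B.

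**Figure D2:**
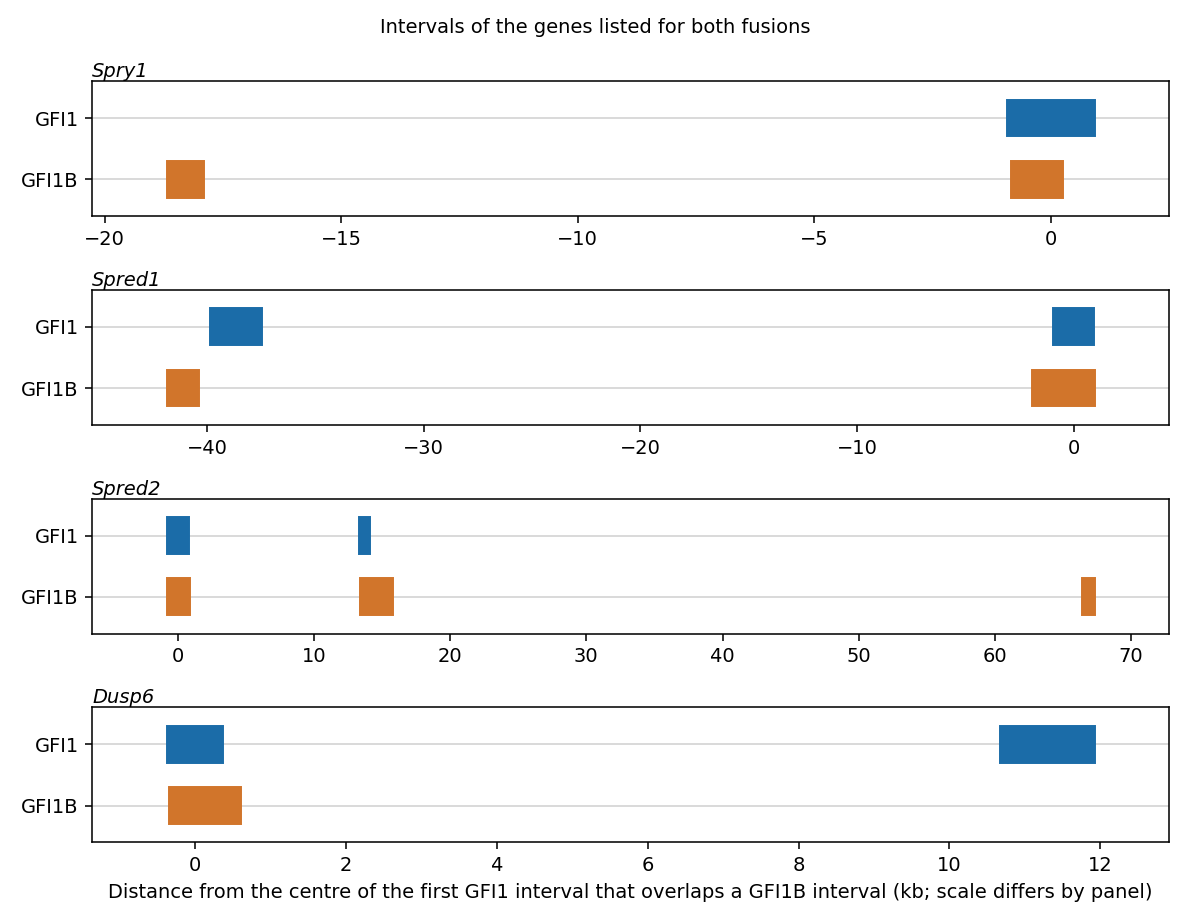
Intervals (filled boxes) of the 4 genes listed for both fusions, GFI1 above GFI1B in each panel; the horizontal axis is the distance in kb from the centre of the first GFI1 interval that overlaps a GFI1B interval, and its scale differs by panel. Each gene has at least 1 place marked by both, and Spry1, Spred2 and Dusp6 each have 1 interval more than 10 kb from any interval of the other fusion.

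Among the phosphatase genes, Dusp6, whose product removes phosphates from ERK in the cytoplasm and is a common readout of FGF signalling, was listed for both fusions. It had 127 reads at 63.4 reads per kb for GFI1, against 44 reads at 46.3 reads per kb for GFI1B. It stood at percentile 73.0 for GFI1 and 35.8 for GFI1B. The shared place was chr10:98729487-98730237 (751 bp) for GFI1 and chr10:98729521-98730471 (951 bp) for GFI1B (mm9), overlapping by 717 bp, 95.5% of the GFI1 interval and 75.4% of the GFI1B interval. GFI1 had a further interval, chr10:98740537-98741787 (1251 bp), 10.3 kb from its first, and no GFI1B interval lay within 10.1 kb of it.

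Dusp5, a nuclear phosphatase specific for ERK that is induced by ERK activity, was listed for GFI1 alone. It had 58 reads in chr19:53627616-53629316 (mm9, 1701 bp) at 34.1 reads per kb, percentile 14.6, the lowest reads per kb of the inhibitors in the GFI1 list. The nearest GFI1B interval was 118 kb away, under another gene. Dusp4, a nuclear phosphatase of ERK, JNK and p38 kinases, was also listed for GFI1 alone. Its 39 reads in chr8:35847129-35847829 (mm9, 701 bp) gave 55.6 reads per kb, percentile 63.0, and percentile 14.4 by read number. The nearest GFI1B interval was 495 kb away. Over the whole GFI1 list, intervals without overlap lay a median of 59.7 kb from the nearest GFI1B interval (middle 50%, 18.5 to 185 kb). Dusp4 was thus farther than most, while Spry4 and Dusp5 lay inside that range. The GFI1 intervals without overlap at Spred1 (0.495 kb) and Dusp6 (10.1 kb) lay nearer than that range.

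Set together, the 8 genes carried 10 GFI1 intervals, 651 to 2401 bp wide (median 1451 bp), and 9 GFI1B intervals, 801 to 2901 bp wide (median 1101 bp). The median over all intervals was 1201 bp for GFI1 and 1351 bp for GFI1B. All 19 were listed under the inhibitor and no other gene, as were 96.2% of all GFI1 intervals and 95.1% of all GFI1B intervals. Of the 10 GFI1 intervals 5 overlapped a GFI1B interval of the same gene by at least 1 bp, and of the 9 GFI1B intervals 5 overlapped a GFI1 interval. Over the whole lists 39.2% of GFI1 intervals and 36.9% of GFI1B intervals overlapped the other list. Of the 7 inhibitors listed for GFI1 4 (57.1%) were also listed for GFI1B, and 56.4% of all GFI1 genes were. Of the 5 listed for GFI1B 4 (80.0%) were also listed for GFI1, and 55.4% of all GFI1B genes were. All 4 shared inhibitors had overlapping intervals, as did 77.5% of the 2953 genes shared by identifier. The inhibitors' shares rest on at most 10 genes or intervals each, and nothing particular to them is read from the difference.

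The shared inhibitors stood at different places in the 2 lists. The percentile for GFI1 minus that for GFI1B was 37.2 for Dusp6, -7.13 for Spred2, -8.74 for Spred1 and -23.2 for Spry1. Among the 2953 shared genes the median absolute difference was 14.5 points and the upper quartile 29.5. Dusp6 differed by more than 83.1% of shared genes and Spry1 by more than 65.4%, while Spred1 and Spred2 differed by less than the median. These differences are by reads per kb and change with the measure. By read number the percentiles for GFI1 and GFI1B were 75.2 and 13.3 at Dusp6 and 61.6 and 68.7 at Spry1. They were 79.9 and 93.2 at Spred2, and 81.5 and 78.0 at Spred1, where the direction was the other way. The fusions also differed in the number of intervals at Dusp6, Spry1 and Spred2, and had 2 each at Spred1. The number was equal in 57.9% of shared genes. No replicate error is known for these values, so none of the differences could be tested.

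**Figure D3:**
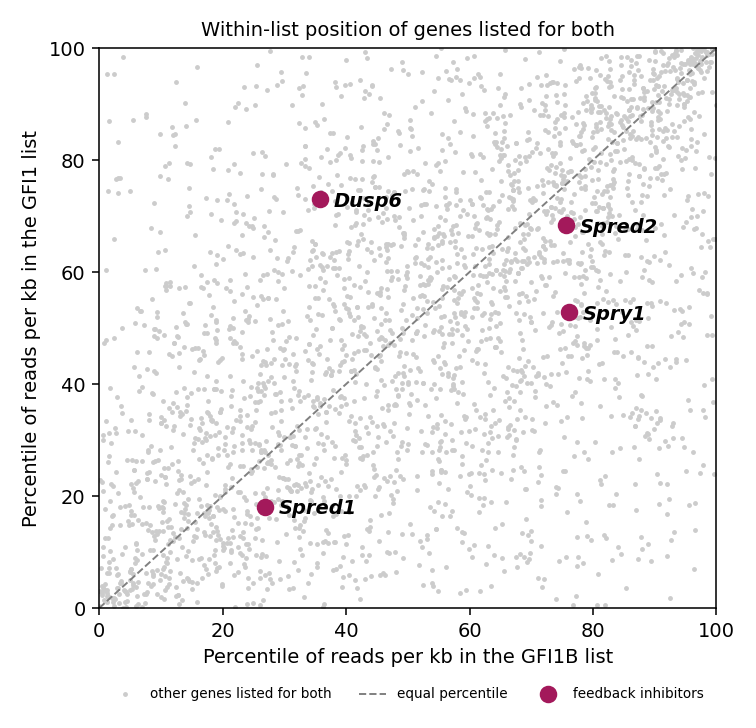
Percentile of reads per kb in the GFI1 list (vertical axis) against the GFI1B list (horizontal axis) for the genes listed for both fusions; grey points are other genes, large points the 4 feedback inhibitors, and the dashed line marks equal percentiles. Dusp6 lies above the line (73.0 for GFI1, 35.8 for GFI1B) and Spry1 below it (52.9 for GFI1, 76.1 for GFI1B), while Spred1 and Spred2 lie near it.

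Spred2 had the highest mean percentile of the shared inhibitors. Of 2471 other protein-coding genes listed for both fusions, those with the most similar pair of percentiles were Usp6nl, Crhbp and Crem, at summed absolute differences of 1.61, 1.94 and 2.01 points over the 2 lists. Each had 1 interval per fusion, unlike Spred2, and with 2 values per gene the likeness says little.

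The rest of the pathway was read through 67 further genes in 6 groups. For GFI1 24 (35.8%) were listed and for GFI1B 26 (38.8%), with 15 in both and 32 in neither. Both shares lie above the 18.4% and 19.1% of protein-coding genes given above and below those of the 8 inhibitors. These 67 genes too were chosen with earlier results of these data known, and they were not set beside genes of like length. The difference in shares is therefore a description and was not tested. The listed pathway genes had a median percentile of 53.5 among GFI1 genes and 35.3 among GFI1B genes.

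Of the remaining Sprouty and SPRED genes and receptor-level inhibitors, 5 of 11 (45.5%) were listed with GFI1:DAM and 7 (63.6%) with GFI1B:DAM. Protein-coding genes at large were listed at 18.4% and 19.1%. Errfi1, an inhibitor of EGF receptors, had 57.9 reads per kb with GFI1:DAM (percentile 66.8) and 82.0 with GFI1B:DAM (percentile 81.5). Il17rd, an inhibitor of FGF signalling also called Sef, was in the GFI1B list (70.5 reads per kb) but not that of GFI1. The remaining family members Spry3 and Spred3 were in neither list. Lrig2 had 67.7 reads per kb with GFI1:DAM (percentile 76.7) and 48.5 with GFI1B:DAM (percentile 40.6). Cbl, a ubiquitin ligase of activated receptors and a partner of SPRY2, had 47.6 (percentile 47.4) and 40.0 (percentile 22.2). Ptpn1, a tyrosine phosphatase of receptors, was listed for GFI1 (60.0) and not for GFI1B.

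Of the other MAP kinase phosphatase genes each fusion marked 2 of 7 (28.6%), where GFI1:DAM marked 3 of 3 among the inhibitors and GFI1B:DAM 1 of 3. The 3 among the inhibitors were picked with earlier results known, so this contrast is a description and was not tested. The share at large, over protein-coding genes, was 18.4% with GFI1:DAM and 19.1% with GFI1B:DAM. Dusp10, a phosphatase of p38 and JNK, had 55.2 reads per kb with GFI1:DAM (percentile 62.2) and 45.6 with GFI1B:DAM (percentile 34.2). Dusp1, an early-response phosphatase, was listed for GFI1 (50.4) and not for GFI1B, and Dusp16, a phosphatase of JNK, for GFI1B (102, percentile 90.0) and not for GFI1. The other 4 genes of the group were in neither list.

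Of the RAS GTPase activators, which turn RAS off, GFI1:DAM marked 4 of 8 and GFI1B:DAM 3. Nf1, the gene of the neurofibromin that SPRED1 recruits, was listed for GFI1 (72.4 reads per kb, percentile 80.4) and not for GFI1B. Rasal2 was also listed for GFI1 (66.6) and not for GFI1B. Rasa2 was listed for both, at 49.8 for GFI1 (percentile 52.0) and 32.5 for GFI1B (percentile 9.34). Rasa3 (41.3) and Dab2ip (41.3) were in the GFI1B list but not that of GFI1. Of the adaptors and exchange factors, which link receptors to RAS, GFI1:DAM marked 2 of 9 (22.2%) and GFI1B:DAM 4 (44.4%). The GFI1 share is near the 18.4% of protein-coding genes. Frs2, the docking protein of FGF receptors, stood at 50.6 for GFI1 (percentile 53.7) and 54.5 for GFI1B (percentile 51.4). Gab2 stood at 38.7 for GFI1 (percentile 24.5) and 73.9 for GFI1B (percentile 75.5).

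Of the RAS, RAF, MEK and ERK group GFI1:DAM marked 4 of 12 and GFI1B:DAM 6. Ksr1, a scaffold that brings RAF, MEK and ERK together, reached 246 reads per kb, percentile 99.1, with GFI1B:DAM and was not in the GFI1 list. Map2k1, which encodes a MEK kinase, was in the GFI1B list (89.9) but not that of GFI1.

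Of the ERK-responsive factors and early genes GFI1:DAM marked 7 of 20 (35.0%) and GFI1B:DAM 4 (20.0%). Over protein-coding genes the shares were 18.4% for GFI1 and 19.1% for GFI1B, so the GFI1B share is near that at large. All 4 of the GFI1B genes were listed for GFI1 as well, as were 55.4% of all GFI1B genes. Phlda1, an early gene of growth factor signalling, had 90.4 reads per kb with GFI1:DAM (percentile 89.3) and 93.5 with GFI1B:DAM (percentile 87.2). Etv1, an ETS factor of FGF signalling, stood at 45.4 for GFI1 (percentile 41.7) and 98.8 for GFI1B (percentile 89.0). The ETS factor gene Ets1 stood at 38.4 over 5 intervals for GFI1 (percentile 23.6) and 82.7 over 6 intervals for GFI1B (percentile 82.0). The other 13 genes of this group were in neither list.

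**Figure D4:**
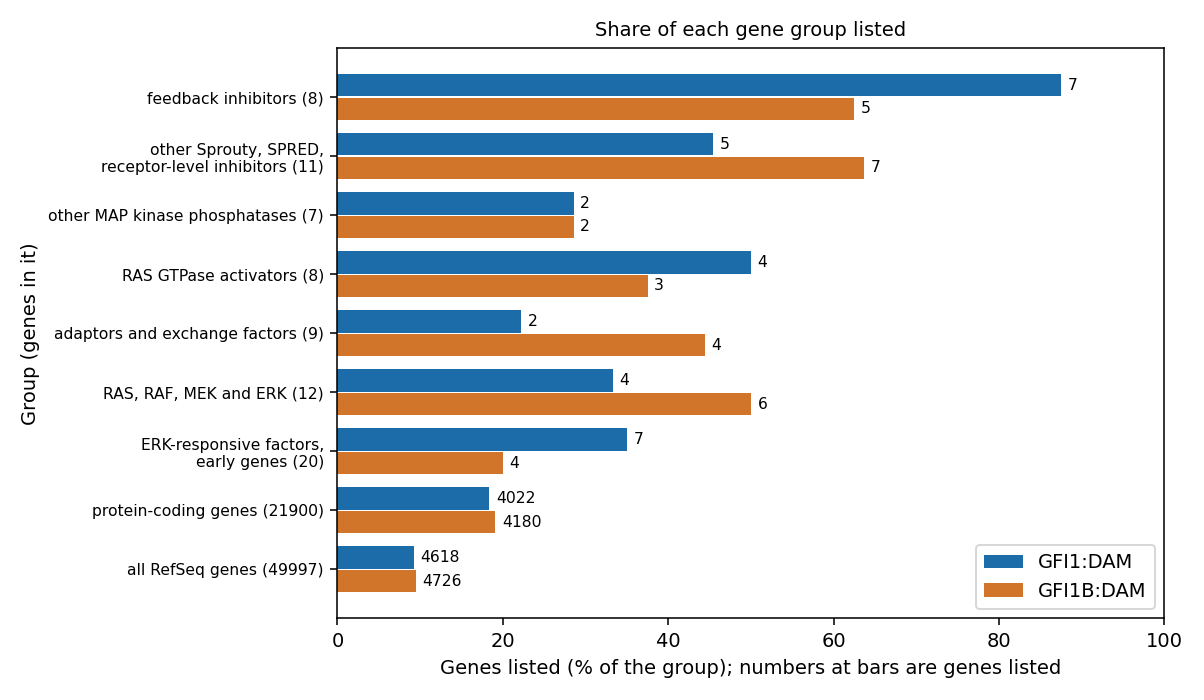
Share of each gene group listed (horizontal axis, percent of the group) for GFI1 (upper bar) and GFI1B (lower bar), with the number of genes listed at each bar and the size of the group beside its name. The 8 feedback inhibitors have 7 genes listed for GFI1 and 5 for GFI1B, and protein-coding genes at large are listed at 18.4% and 19.1%.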

How the data were processed

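GFI1:DAM, GFI1B:DAM and DAM alone were profiled by DamID. BayesPeak and a further method called SS, at threshold 0.05, made the GFI1B list per the file headers, with lanes merged and control reads removed ahead of SS. The GFI1 header breaks off after BayesPeak. Control subtraction is therefore unknown for GFI1, and the lists may differ in it. The aligner and the rule tying intervals to genes are not given. Intervals are on mm9, per the submitters' processing notes. No mm9 annotation was used, so exon, intron and distance to a start are not reported.

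Read numbers deposited by the authors were handled as a score without a counting interval, because control reads may already be taken off. The signal deposited by the authors, reads per kb, was recomputed from read number and length within 0.005 in every row. Worksheet names tied the lists to the fusions. Python 3.11.15 and pandas 2.3.3 were used for percentiles within each list (ties averaged), overlaps of at least 1 bp, and listed shares over RefSeq genes of GRCm38.p6, matched by symbol or unique synonym (88.4% of GFI1 rows, 89.1% of GFI1B rows). The overlap and percentile steps were tested on simulated data.

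The 8 genes and 67 pathway genes were chosen with earlier results of these data known. Named pathway genes are up to 4 per group and fusion by reads per kb. Spry3 and Spred3 were named after their values were seen. The values of some pathway genes are not reported here, and these genes stay in the counts. Synonyms, the stronger 50% of each list, intervals under no other gene, 50% overlap and other rankings were tried as alternatives.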

Additional observations from a re-analysis of the deposited data

How the results depend on the processing

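There were 24 alternatives over 8 results, and 16 kept the count within 1.5 times or the median percentile within an exact 95% binomial interval over the genes of its list (61.7 to 64.3 for GFI1, 34.5 to 37.1 for GFI1B). That interval is a yardstick for a rank in the list and holds no replicate or read error. It also leaves out the spread among the inhibitors, whose percentiles ran from 14.6 to 77.7 for GFI1 and 11.1 to 76.1 for GFI1B. Beside that range the interval is narrow, so a small shift of the median fell outside it. With only the stronger 50% of each list, 2 inhibitors were listed for GFI1B and 2 for both fusions, and pathway genes numbered 14 for GFI1 and 11 for GFI1B. This setting shortens the lists by construction, and 5 inhibitors were listed for GFI1 under it. Ranked by read number, the inhibitors' median percentile was 61.6 for GFI1 and 68.7 for GFI1B, and ranked by summed interval length it was 58.5 for GFI1B. Among protein-coding rows it was 64.6 for GFI1. The position of the inhibitors in the GFI1B list thus depends on the ranking measure. With an overlap of at least 50% of both intervals, 4 of 10 GFI1 intervals were shared. No paired analysis was possible because each fusion has 1 pooled list and its replicates cannot be told apart. Unknown depth and the single pooled value limit every comparison between the lists.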
